A study of Mus musculus with 24 samples.

Results

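The response of wild-type (WT) mouse macrophages to lipopolysaccharide (LPS) was measured across all 11590 genes of the deposited count table, with 4 libraries of LPS-treated cells (LPS) set against 4 of untreated cells (untreated). These are 8 of the 24 libraries of the series, chosen by their labels alone, and every gene of the table entered the comparison. The macrophages came from the bone marrow of C57BL/6 mice, all male, which carried no altered allele. Marrow cells had been grown on an adherent surface with M-CSF, the growth factor that turns marrow progenitors into macrophages, and on day 7 they received 10 ng/mL LPS for 4 h or were left without it. The other libraries were WT cells given lysophosphatidic acid (LPA) and the same 3 treatments of cells that lack the receptor GPR35 (KO). The labels do not say whether the 4 replicates of a group came from separate mice or cultures, nor how old the mice were, so a p-value measures the spread between these libraries, which may be technical. Levels are in CPM, the count of a gene scaled to a common library size, here with TMM factors. Mean levels and shares of counts are given ± SD over 4 libraries. A log2 change is given ± its standard error (SE) from the fit of all 24 libraries.

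LPS is the outer membrane glycolipid of Gram-negative bacteria. Macrophages bind it through CD14 and through TLR4 with its partner MD-2 (the product of Ly96), and the receptor signals by one adaptor, MyD88, to NF-kB and MAP kinases, and by another, TRIF, to IRF3 and interferon-β. Genes of inflammation answer directly, while secreted cytokines and interferon-β act back on the cells and bring on further genes, inhibitors of the pathway among them.

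The 8 libraries were deep and cleanly split by treatment. Untreated libraries held 35.5 to 46.7 M counts and LPS libraries 35.3 to 36.7 M, each over lanes 1 and 2 of the flow cell. The leading principal component of the log2 CPM values carried 94.6% of their variance and separated the groups, and the next carried 1.76%. All 11590 genes reached 0.5 CPM by library total in at least 6 of the 24 libraries, so low genes had been removed upstream. Of them, 85 reached it in 6 libraries only through LPS-treated cells, and these had to come out higher, all 85 over 2-fold. Another 623 did so only through cells without LPS, where the choice favours falls. Of these, 585 were called lower, 439 of them over 2-fold, and 0 higher. Both sets are part of the counts of higher and lower genes below. Genes that mark macrophages were abundant in both groups. Lyz2 (lysozyme) stood at 24600.1 ± 1089 CPM untreated and 28640.4 ± 547 CPM after LPS, Adgre1 (F4/80) at 2961 ± 187 and 6868 ± 624, and Csf1r (the M-CSF receptor) at 4856 ± 282 and 3374 ± 166.

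LPS moved most of the genes that could be tested. At an adjusted p below 0.05 in edgeR's quasi-likelihood test, 9759 genes were called, which is 84.2% of the table: 4709 were higher (40.6%) and 5050 lower (43.6%). A test against a minimum change of 2-fold (glmTreat) called 3267 genes (28.2%), with 1421 higher (12.3%) and 1846 lower (15.9%). In 9369 genes (80.8%) the values of the untreated and the LPS libraries did not overlap. The median size of a change, without its sign, was 0.68 on the log2 scale. Changes over 2 on that scale were found in 1454 genes, over 3 in 529 and over 5 in 93. Counts by themselves therefore say little about a gene group here, and each group below is read against these shares. In bulk RNA, fewer transcripts per cell and fewer cells that hold them cannot be told apart.

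With so many genes changed, the split between higher and lower rested on the scaling. Genes over 2-fold higher took 14.5 ± 0.398% of all counts in untreated cells and 39.1 ± 0.851% after LPS, and genes over 2-fold lower went from 7.93 ± 0.308% to 1.55 ± 0.0885%. TMM answers this by lowering the effective size of the LPS libraries, by -0.56 on the log2 scale relative to the untreated ones, and under it the median gene changed by -0.04. With library totals alone, all changes shifted down by that amount: the median became -0.59, the called genes 2387 higher and 7847 lower, and those over 2-fold 806 higher and 3372 lower. Upper-quartile factors lay between, with a median of -0.31 and 3431 higher against 6535 lower. Median-ratio factors (4858 higher, 4896 lower, median -0.01) and factors from the ribosomal protein genes alone (4843 higher, 4402 lower, median 0.06) lay close to TMM. Under all 5 scalings 2387 genes were called higher (20.6%) and 4400 lower (38.0%), and 806 and 1599 were over 2-fold. A further 1304 genes were called higher under one scaling and lower under another. Library totals move every value down by about 0.56 against TMM, so that smaller rises turn into falls. Falls are more stable, since ribosomal protein scaling, with the largest upward move of the 5, gave a median of 0.06 against -0.04. No external standard was used, and whether LPS altered the RNA content of a cell was not measured.

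**Figure D1:**
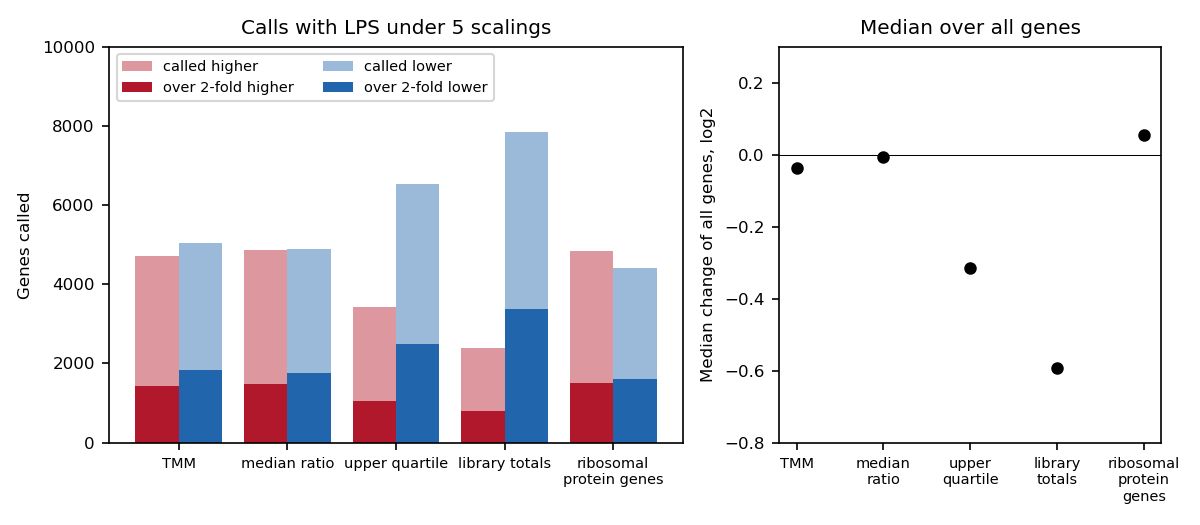
Genes called with LPS in WT macrophages under 5 scalings (left; red higher, blue lower, dark part over 2-fold by glmTreat) and the median log2 change of all 11590 genes (right, points). Calls are nearly even under TMM, median-ratio and ribosomal protein scaling, while library totals give 2387 higher and 7847 lower.

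Of 212 genes named below by a rule, 211 were called, 132 higher and 79 lower. The adjusted p of these 211 ran from 7.0e-19 to 0.026, and in 208 of the 212 the groups did not overlap. The rule favours genes with a small adjusted p or with groups that do not overlap, so it largely set these counts. Over all genes 84.2% were called, and in 80.8% the groups did not overlap. Genes named beyond the rule complete a count or a role and were chosen after their values were seen. Among genes of at least 5 CPM in one group, the 15 largest rises held secreted signals, enzymes and receptors. Lipg (endothelial lipase) counted 0.698, 0.723, 0.594 and 0.476 CPM in the untreated libraries and 105, 141, 165 and 103 CPM after LPS, a log2 change of 7.66 ± 0.26. Adora2a (a receptor of adenosine) went from 0.916, 0.819, 0.742 and 0.752 to 138, 107, 111 and 95.5 CPM, a change of 7.11 ± 0.22. Every LPS library lay far above every untreated one for both. Tmem200b, a transmembrane protein gene, showed the largest change of the 15, 7.89 ± 0.34, from 0.0234 ± 0.0204 to 6.38 ± 1.55 CPM, and stood on 0, 1, 2 and 1 counts untreated, so its size is poorly fixed. Edn1 (endothelin-1, a vessel-constricting peptide) rose by 7.58 ± 0.38, Serpinb2 (the plasminogen activator inhibitor PAI-2) by 7.34 ± 0.37 and Csf3 (G-CSF, which drives neutrophil production) by 7.32 ± 0.49. The rest were the miRNA host gene Mir155hg (7.15 ± 0.22), Rasgrf1 (a Ras exchange factor, 7.03 ± 0.45), Col27a1 (a collagen chain, 6.91 ± 0.43), Lad1 (ladinin-1, 6.69 ± 0.29), Itgb8 (an integrin chain that activates TGF-β, 6.61 ± 0.26), Ptgs2 (COX-2, 6.60 ± 0.32), Acod1 (the itaconate enzyme, 6.41 ± 0.26), Ccl7 (a monocyte chemokine, 6.33 ± 0.38) and Saa3 (serum amyloid A3, 6.31 ± 0.41).

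The 15 largest falls were of comparable size and held receptors, lipid enzymes and regulators of untreated macrophages. Cxcr4 (the receptor of CXCL12, chromosome 1, 128588199 to 128592299) counted 148, 144, 170.3 and 215 CPM untreated and 2.56, 3.37, 3.59 and 4.26 CPM after LPS, a log2 change of -5.62 ± 0.30. St6gal1, whose enzyme adds sialic acid to glycoproteins, went from 185, 205, 221 and 200.4 to 2.35, 3.22, 4.56 and 4.51 CPM, a change of -5.79 ± 0.25. Both genes were thus cut from moderate levels to a few CPM in all 4 LPS libraries. Angptl4, a secreted inhibitor of lipoprotein lipase, changed most, by -7.70 ± 0.39 on the log2 scale, from 12.2 ± 0.637 to 0.0533 ± 0.0608 CPM. Lpin1, a phosphatidate phosphatase of fat synthesis, changed by -5.66 ± 0.27 and Slco2b1, an organic anion transporter, by -5.72 ± 0.23. Among receptors, Gpr34 (a lysophosphatidylserine receptor, -6.14 ± 0.55), Cnr2 (the cannabinoid receptor CB2, -6.13 ± 0.35) and Gpr183 (the receptor of oxysterols, -5.53 ± 0.19) fell together. The others were Fam214a (-6.78 ± 0.55), the transcription factor gene Sox4 (-6.54 ± 0.43), Zfyve28 (a regulator of EGF receptor traffic, -6.15 ± 0.29), the ubiquitin ligase gene Rnf150 (-6.11 ± 0.29), Rasgrp3 (a Ras exchange factor, -6.09 ± 0.40), Frat1 (an inhibitor of GSK3, -6.05 ± 0.45) and Engase (an enzyme that frees glycans, -5.54 ± 0.23). Under library totals each of the 15 rises was smaller and each fall larger by about the shift of 0.56, and none changed direction.

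**Figure D2:**
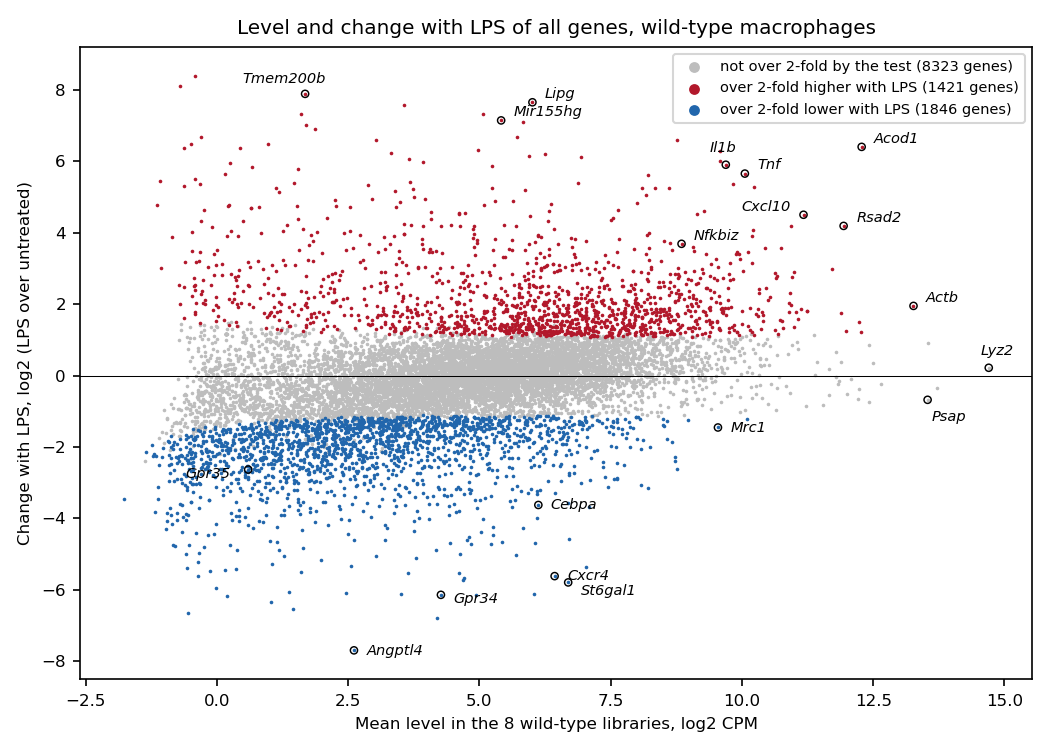
Log2 change with LPS against the mean level (log2 CPM) of each gene over the 8 WT libraries; red and blue points passed the test for over 2-fold (1421 and 1846 genes), grey points did not. Changes reach beyond 7 in both directions, and genes of high level such as Acod1 and Rsad2 are among the risen ones.

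The receptor complex itself changed unevenly. Tlr4 (chromosome 4, 66827551 to 66846581) counted 179, 171, 147 and 159 CPM untreated and 91.4, 108, 118 and 125 CPM after LPS, a log2 change of -0.57 ± 0.08 (edgeR adjusted p = 9.2e-07). Its co-receptor Cd14 went the other way, from 372, 448, 502 and 427 to 2389.7, 2447, 2676 and 2062 CPM, a change of 2.45 ± 0.14. For both genes the groups did not overlap. Ly96, the gene of MD-2, changed by 0.45 ± 0.09 under TMM and by -0.11 under library totals, so its direction was not fixed. Per kilobase of the deposited gene length, the level of Cd14 was 1441 CPM after LPS and that of Tlr4 14.0. Of 30 genes of TLR4 signalling, 21 were called higher and 4 lower, with a median log2 change of 0.45 that became -0.11 under library totals. The largest rises besides Cd14 were those of Peli1, an E3 ligase that acts on IRAK proteins (3.09 ± 0.08), Irak3, the kinase-dead inhibitor IRAK-M (3.05 ± 0.09), the kinase gene Irak2 (2.70 ± 0.08) and Myd88 (2.18 ± 0.08). The 4 lower ones were Tab1 (-1.35 ± 0.08), Irak4 (-0.66 ± 0.06), Tlr4 and Mapk3 (-0.55 ± 0.05).

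All 17 measured genes of NF-kB subunits and their inhibitors rose, 13 of them over 2-fold, with a median log2 change of 2.10 against -0.04 over all genes. Nfkbiz (IκBζ, a nuclear partner of NF-kB, chromosome 16, 55811375 to 55838954) counted 67.3, 65.0, 68.7 and 64.0 CPM untreated and 907, 860.2, 876 and 781 CPM after LPS, a change of 3.69 ± 0.09. Its spread within a group was small beside the difference. Among the subunits the change ran from 1.13 ± 0.07 for Rela (p65) to 2.36 ± 0.08 for Rel (c-Rel), with Nfkb1 (p105/p50) at 2.10 ± 0.07. Among the inhibitors Nfkbia (IκBα, which holds NF-kB in the cytoplasm) rose by 2.71 ± 0.13, Tnip1 (a partner of A20) by 2.61 ± 0.09 and Tnfaip3 (A20, which edits ubiquitin chains to stop the signal) by 3.00 ± 0.12. Under library totals 15 of the 17 stayed higher and 2 turned lower, Tnip2 and Cyld, which had changed by 0.35 ± 0.07 and 0.36 ± 0.05 under TMM.

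Promoters of 3 of these genes are shown because they hold the decameric NF-kB consensus, named kB here, that the subunits bind. The windows are from RefSeq (GRCm38.p6), run 5′ to 3′ on the minus strand of the chromosome from 250 bases before the annotated start to 50 after it, and have each match in capitals.
Rel, chr11:23770920-23771219: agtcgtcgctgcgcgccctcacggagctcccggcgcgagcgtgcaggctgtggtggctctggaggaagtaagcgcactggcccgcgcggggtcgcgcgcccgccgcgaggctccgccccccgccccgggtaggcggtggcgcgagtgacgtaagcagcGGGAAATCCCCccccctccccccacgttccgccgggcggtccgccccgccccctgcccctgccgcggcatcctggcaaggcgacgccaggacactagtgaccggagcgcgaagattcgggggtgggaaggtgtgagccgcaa
Tnip1, chr11:54962891-54963190: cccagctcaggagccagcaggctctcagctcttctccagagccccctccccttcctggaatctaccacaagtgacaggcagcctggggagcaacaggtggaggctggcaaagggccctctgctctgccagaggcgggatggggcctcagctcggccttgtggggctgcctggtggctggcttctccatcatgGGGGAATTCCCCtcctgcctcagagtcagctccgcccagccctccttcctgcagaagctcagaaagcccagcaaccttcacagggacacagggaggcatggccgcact
Tnfaip3, chr10:19015361-19015660: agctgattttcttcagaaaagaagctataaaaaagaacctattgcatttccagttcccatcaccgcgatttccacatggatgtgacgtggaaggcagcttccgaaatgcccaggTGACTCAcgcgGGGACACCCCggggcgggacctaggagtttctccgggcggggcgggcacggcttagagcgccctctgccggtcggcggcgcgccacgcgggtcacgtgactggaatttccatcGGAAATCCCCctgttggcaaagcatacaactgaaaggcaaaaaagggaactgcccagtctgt
In Rel a match began 92 bases before the start and in Tnip1 58 bases before it, each overlapping matches on the other strand. In Tnfaip3 one match began 125 bases before the start and another 12 bases before it, and the capitals farthest upstream mark an AP-1 motif, TGANTCA. The genes were picked for holding a motif. Over all 32851 RefSeq windows of this length, read on both strands, 8.46% held the kB consensus and 7.81% the AP-1 motif. Only 78.1% of the genes over 2-fold higher had a window, so motif shares of risen and fallen genes were not compared.

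Cytokine genes rose throughout, from and to very different levels. Tnf, the gene of the first-wave cytokine TNF (chromosome 17, 35199367 to 35202007), counted 43.1, 47.6, 34.9 and 39.5 CPM untreated and 2184, 2068, 2200.2 and 1894 CPM after LPS, a log2 change of 5.66 ± 0.26. Il1b, the precursor of IL-1β, went from 19.7, 29.4, 35.0 and 24.3 to 2053, 1716, 1599 and 1141 CPM (5.91 ± 0.31). Il6 stood at 0.567, 0.438, 0.445 and 0.401 CPM untreated and 39.2, 27.9, 33.1 and 19.3 CPM after LPS (5.99 ± 0.36). In Il1b and Il6 the 4 LPS libraries spread more widely than for Tnf, with LPS library 4 lowest in each, and none overlapped an untreated library. Of 23 pro-inflammatory cytokine genes listed 18 were measured, and all 18 were called higher, 17 of them over 2-fold, with a median of 3.40. Some stood near 0 untreated, such as Il12a (0.0400 ± 0.0431 CPM) and Csf3 (0.0315 ± 0.0320 CPM). A gene that entered the table only through LPS-treated cells had to come out higher. How many of the 18 did so was not counted. The smallest adjusted p among the 18 belonged to Il27 (a cytokine of the IL-12 family, 5.19 ± 0.21), Tnfsf9 (4-1BB ligand, 4.19 ± 0.18), Csf1 (M-CSF itself, 3.33 ± 0.14) and Il15 (which sustains NK and memory T cells, 2.25 ± 0.09). The window of Csf1 is printed because it holds a kB match in reverse, 154 bases before the start.
Csf1, chr3:107760420-107760719: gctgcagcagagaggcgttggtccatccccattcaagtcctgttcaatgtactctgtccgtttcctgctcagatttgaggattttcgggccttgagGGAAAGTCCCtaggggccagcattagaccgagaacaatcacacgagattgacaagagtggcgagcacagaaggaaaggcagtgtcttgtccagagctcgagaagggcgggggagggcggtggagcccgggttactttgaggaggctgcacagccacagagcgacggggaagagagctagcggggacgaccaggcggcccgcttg
Csf1, which encodes the growth factor the cells were raised in, thus stood at 8.11 ± 1.36 CPM untreated and 82.1 ± 5.39 CPM after LPS, while Csf1r changed by -0.53 ± 0.08.

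Chemokine genes rose with them. Among 12 CC chemokine genes 10 rose, all over 2-fold, and the median was 4.08. Ccl3 and Ccl4 (MIP-1α and MIP-1β) rose by 5.37 ± 0.18 and 6.02 ± 0.24, Ccl5 (RANTES) by 5.27 ± 0.18 and Ccl12 (a CCR2 ligand) by 5.26 ± 0.29. Ccl25 was called lower (-0.65 ± 0.17) at about 1 CPM, and Ccl6 was not called (-0.32 ± 0.20). Among 11 genes of CXC and CX3C chemokines 10 rose, 7 of them over 2-fold, with a median of 3.66. Cxcl10, the ligand of CXCR3, counted 207, 217, 190.4 and 163 CPM untreated and 3741, 4230.0, 5335 and 4375 CPM after LPS (4.51 ± 0.24), and all its LPS libraries lay well above the untreated ones. The neutrophil attractant Cxcl2 rose by 5.26 ± 0.36, Cx3cl1 (fractalkine) by 4.06 ± 0.26 and Cxcl11 by 3.66 ± 0.25. Cxcl14 fell (-1.21 ± 0.20). Per kilobase, Ccl5 after LPS stood at 4387 CPM, Cxcl10 at 4018, Ccl3 at 2254 and Tnf at 1262.

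**Figure D3:**
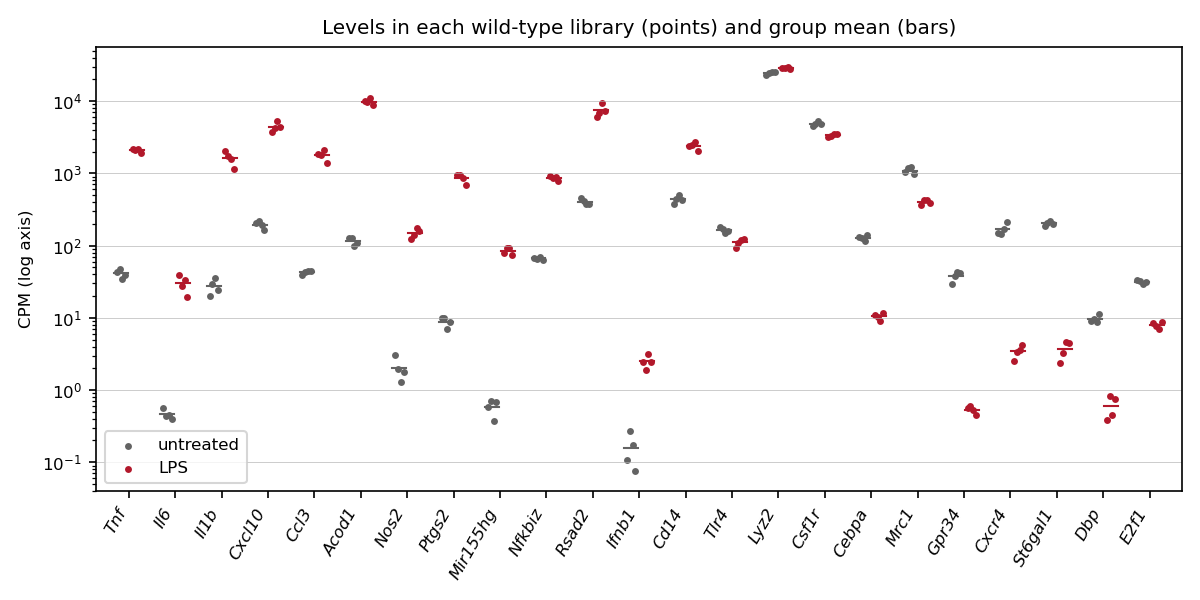
CPM on a log axis of 23 genes in each of the 4 untreated (grey) and 4 LPS (red) WT libraries, with group means as bars. The groups do not overlap for any gene shown, and changes run from under 2-fold (Lyz2, Csf1r, Tlr4) to 7.15 ± 0.22 on the log2 scale (Mir155hg).

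Genes that damp inflammation also rose: 17 of 21 were called higher and 3 lower, with a median of 1.27. Socs3, which blocks cytokine receptors that signal by JAK kinases, rose most, by 4.84 ± 0.22. Dusp2, a phosphatase of MAP kinases, rose by 4.62 ± 0.15, Il1rn (the IL-1 receptor antagonist) by 3.83 ± 0.30, Cd274 (PD-L1) by 2.73 ± 0.13 and Zc3h12a (Regnase-1, which degrades cytokine mRNAs) by 2.28 ± 0.08. The 3 lower ones were Tsc22d3 (GILZ, a glucocorticoid-induced inhibitor, -2.80 ± 0.12), Cish (-0.69 ± 0.32) and Cd200r1 (-0.67 ± 0.15). Il10, the gene of the anti-inflammatory cytokine, changed by 0.64 ± 0.16 (edgeR adjusted p = 0.00098); it lies outside the naming rule and is given for its role.

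Interferon-stimulated genes rose throughout. Whether interferon-β brought on their rise was not tested. Ifnb1, the gene of interferon-β (chromosome 4, 88522025 to 88522794), counted 0.109, 0.266, 0.173 and 0.0752 CPM untreated, on 5, 14, 7 and 3 counts, and 2.42, 1.89, 3.18 and 2.46 CPM after LPS, a change of 3.91 ± 0.34. It was low in absolute terms at 4 h. All 40 measured interferon-stimulated genes rose, 39 of them over 2-fold, with a median of 2.36, and all 40 stayed higher under each of the 5 scalings. The Ifit, Oas and Gbp genes among them have close copies, so how their reads were shared out is uncertain. Rsad2 (viperin, an antiviral enzyme) counted 453, 418, 375 and 378 CPM untreated and 5971, 6922, 9531 and 7299 CPM after LPS (4.19 ± 0.22). The smallest adjusted p belonged to Ifih1 (MDA5, a sensor of double-stranded RNA, 3.26 ± 0.12), Eif2ak2 (PKR, 1.89 ± 0.09), Isg20 (an RNA exonuclease, 3.84 ± 0.18) and Ddx58 (RIG-I, 2.07 ± 0.11). Among 18 genes of interferons, receptors and their kinases and factors, 13 rose and 1 fell, with a median of 0.77. Jak2 (2.86 ± 0.09), Tyk2 (1.20 ± 0.06), Stat3 (1.09 ± 0.06) and Jak1 (0.65 ± 0.04) led by adjusted p, and Ifngr1, a chain of the interferon-γ receptor, fell (-0.75 ± 0.08). Under library totals 10 were called higher and 7 lower.

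Windows of Ifih1 and Eif2ak2 are shown because each holds the core of the interferon-stimulated response element, GAAA, any 2 bases and GAAA again, within the 50 bases after the annotated start.
Ifih1, chr2:62646206-62646505: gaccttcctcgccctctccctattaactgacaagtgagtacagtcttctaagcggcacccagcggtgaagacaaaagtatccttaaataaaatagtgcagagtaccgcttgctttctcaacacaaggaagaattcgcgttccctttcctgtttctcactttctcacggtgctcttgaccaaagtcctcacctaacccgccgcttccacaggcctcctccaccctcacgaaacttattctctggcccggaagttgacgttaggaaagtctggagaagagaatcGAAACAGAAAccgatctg
Eif2ak2, chr17:78882523-78882822: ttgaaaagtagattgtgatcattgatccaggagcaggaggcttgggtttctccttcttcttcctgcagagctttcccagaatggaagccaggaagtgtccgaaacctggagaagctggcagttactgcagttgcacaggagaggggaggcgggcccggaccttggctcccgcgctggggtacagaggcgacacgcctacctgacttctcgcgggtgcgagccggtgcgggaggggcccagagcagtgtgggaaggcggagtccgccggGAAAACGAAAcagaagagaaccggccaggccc
Both are minus-strand genes, and the capitals mark the core. It occurred in 3.44% of all 32851 windows, and, as above, the genes were picked for holding it.

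Immediate-early factors were mixed at 4 h. Of 21 measured, 16 were higher and 4 lower, with a median of 1.21. Maff, a small Maf factor (3.44 ± 0.20), Egr1 (2.80 ± 0.17), Klf6 (1.90 ± 0.09) and Ier2 (1.73 ± 0.12) rose. The 4 lower ones were Fos (-1.36 ± 0.11), Klf2 (-1.25 ± 0.16), Nr4a1 (-1.15 ± 0.27) and Bhlhe40 (-1.14 ± 0.18). A single time cannot show an earlier peak of these genes.

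Enzymes that make mediators showed some of the largest rises. Acod1, whose enzyme turns cis-aconitate into the antibacterial metabolite itaconate (chromosome 14, 103047012 to 103056573), counted 129, 128, 97.7 and 108 CPM untreated and 9887, 9651, 10903 and 8873 CPM after LPS (6.41 ± 0.26). Nos2, the inducible nitric oxide synthase, went from 3.03, 1.98, 1.29 and 1.75 to 123, 142, 172 and 161 CPM (6.20 ± 0.34). Ptgs2, which starts prostaglandin synthesis, went from 9.77, 10.1, 6.90 and 8.67 to 959, 935, 859 and 691 CPM (6.60 ± 0.32). Acod1 thus took 0.750 ± 0.0505% of all counts after LPS. Of 19 genes of itaconate, nitric oxide, prostaglandin and arginine metabolism, 13 rose and 5 fell, with a median of 2.05. Partners of these enzymes rose too: Gch1, which makes the cofactor of nitric oxide synthase (2.96 ± 0.15), Pla2g4a, which frees arachidonate (2.80 ± 0.13), and Hdc, which makes histamine (4.56 ± 0.15). The 5 that fell were Ptger2, a receptor of prostaglandin E2 (-2.20 ± 0.16), the constitutive cyclooxygenase Ptgs1 (-2.16 ± 0.16) and the leukotriene genes Alox5 (-1.31 ± 0.28), Alox5ap (-1.27 ± 0.10) and Ltc4s (-1.01 ± 0.31).

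Of 27 genes of glycolysis and HIF-1 targets, 20 were higher and 4 lower, with a median of 0.85 (12 higher and 8 lower under library totals). Slc2a6 (3.60 ± 0.12) and Slc2a1 (GLUT1, 2.41 ± 0.14) are sugar transporters, Pfkfb3 makes the activator of phosphofructokinase (2.11 ± 0.08) and Hk1 is a hexokinase (1.12 ± 0.05). Adm (adrenomedullin, a vessel-dilating peptide and HIF-1 target) rose most, by 5.66 ± 0.46. It went from 0.0398 ± 0.0216 to 2.19 ± 0.902 CPM, so close to 0 untreated that the size of its rise is poorly fixed. The 4 lower ones were the HIF-1 target Vegfa (-1.99 ± 0.21), Gpi1 (-0.58 ± 0.07), Slc16a1 (-0.53 ± 0.12) and Egln1 (-0.18 ± 0.08). Of 24 genes of the tricarboxylic acid cycle 11 were higher and 11 lower under TMM, with a median of -0.07. That balance rested on the scaling: the median was 0.03 with ribosomal protein scaling, upper-quartile factors gave 5 higher and 15 lower (median -0.35) and library totals 3 higher and 20 lower (median -0.62). Both cytosolic and mitochondrial NADP-linked isocitrate dehydrogenase genes, Idh1 (-1.29 ± 0.08) and Idh2 (-1.48 ± 0.07), fell, whereas Dld (0.91 ± 0.05) and Dlst (0.70 ± 0.04), subunits of 2-oxoglutarate dehydrogenase, rose. Of 28 respiratory chain genes 17 were higher and 4 lower, with a median of 0.18, but that median was -0.09 with upper-quartile factors and -0.37 with library totals. Cycs (cytochrome c) stood out with 2.47 ± 0.16, while Cox5a (0.85 ± 0.07), Atp5b (0.66 ± 0.06) and Atp5o (0.62 ± 0.06) moved less. The 4 lower ones were Ndufb8 (-0.36 ± 0.06), Atp5c1 (-0.34 ± 0.04), Ndufb5 (-0.29 ± 0.06) and Ndufs3 (-0.21 ± 0.05).

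Sterol biosynthesis genes rose almost as a block: 20 of 23 were higher and 2 lower, 16 were over 2-fold higher, and the median was 1.80 (1.25 under library totals). Hmgcs1, which makes the precursor of mevalonate, counted 93.5, 83.6, 80.7 and 88.1 CPM untreated and 459.9, 444, 444 and 466 CPM after LPS (2.39 ± 0.19). Sc5d (2.48 ± 0.18) and Insig1, which holds back the pathway's activator (2.19 ± 0.16), rose alike. The lower ones were Dhcr7 (-0.66 ± 0.15) and Ebp (-0.58 ± 0.05). Of 19 genes of LXR and cholesterol efflux 9 were higher and 10 lower under TMM, with a median of -0.20, and upper-quartile factors gave 6 higher and 10 lower (median -0.48) and library totals 3 higher and 12 lower (median -0.75). Arl4c, an LXR target, changed by -3.69 ± 0.11, from 239.8, 239, 251 and 277 to 15.7, 19.8, 19.7 and 22.9 CPM, and Npc1 (-1.29 ± 0.07), Soat1 (which stores cholesterol as esters, -1.17 ± 0.06) and Smpdl3a (-0.83 ± 0.07) fell less.

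Class I and class II antigen presentation parted. All 20 genes of MHC class I and the immunoproteasome rose, 11 over 2-fold, with a median of 1.22; under library totals 16 were called higher and 2 lower. Nlrc5, the class I transactivator, rose by 2.30 ± 0.14, the peptide transporter gene Tap2 by 2.08 ± 0.11, the proteasome activator Psme2 by 2.07 ± 0.11 and H2-M3 by 1.22 ± 0.07. Of 10 class II genes 4 were higher and 5 lower, with a median of -0.25, and none was called higher under library totals. Ciita, the class II transactivator, counted 30.9, 38.3, 37.4 and 38.4 CPM untreated and 3.36, 3.59, 3.78 and 5.42 CPM after LPS (-3.16 ± 0.26). Of the class II genes it is known to activate, H2-Ab1 changed by 0.64 ± 0.11 and Cd74 by 0.47 ± 0.09, with 0.09 and -0.09 under library totals. The 5 lower ones were Ciita, Ifi30 (-0.99 ± 0.08), H2-DMb2 (-0.66 ± 0.18), H2-DMa (-0.60 ± 0.13) and H2-DMb1 (-0.34 ± 0.10). Reads of near-identical H2 genes may have been split or dropped by the counting. Co-stimulatory and adhesion genes rose in 17 of 20, 11 of them over 2-fold (median 1.78): Cd40 by 4.52 ± 0.16, Icosl (ICOS ligand) by 3.19 ± 0.14, Icam1 by 2.93 ± 0.11 and Slamf7 by 2.23 ± 0.09. Cd80 was the 1 called lower (-0.70 ± 0.16).

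Sensors other than TLR4 shifted too. Of 24 pattern recognition genes 15 rose and 5 fell, 13 and 1 of them over 2-fold, with a median of 1.17 (13 higher and 9 lower under library totals). Clec4e (Mincle, a receptor of mycobacterial glycolipid) rose by 4.20 ± 0.17, Nlrp3 (the core of an inflammasome) by 3.41 ± 0.15 and Nod2 (a sensor of muramyl dipeptide) by 3.09 ± 0.13. Tlr1 (from 101 ± 6.92 to 572 ± 48.0 CPM) and Tlr6 (1.76 ± 0.06 on the log2 scale), the partners of TLR2 in sensing lipopeptides, both rose. The 5 that fell were Nlrp1b (-3.49 ± 0.14), Clec7a (-1.10 ± 0.12), Tlr13 (-1.09 ± 0.08), Tmem173 (STING, -0.89 ± 0.15) and Nlrc4 (-0.66 ± 0.06). Receptors for chemoattractants went to extremes in both directions, 7 higher and 8 lower of 15, with a median of -0.64. The formyl peptide receptor gene Fpr1, which detects bacterial peptides, counted 4.12, 3.77, 3.74 and 2.10 CPM untreated and 249, 263, 247 and 199.9 CPM after LPS (6.11 ± 0.21). Its neighbour Fpr2 rose by 5.61 ± 0.21 and the chemerin-binding Ccrl2 by 4.35 ± 0.13. Opposite to them, Cxcr4 fell as given above, the fractalkine receptor gene Cx3cr1 changed by -2.68 ± 0.53, Ccr2 (the receptor of CCL2) by -1.41 ± 0.25 and S1pr1, which guides cells toward sphingosine phosphate, by -2.64 ± 0.10. Gpr35, the receptor the series was built around, is a low transcript and changed by -2.63 ± 0.29, on 107, 133, 112 and 111 counts untreated and 11, 8, 17 and 10 after LPS.

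The genes that define macrophages did not move as one. Of 25 identity genes 12 were higher and 9 lower, with a median of 0.07 that turned to -0.21 with upper-quartile factors and -0.49 with library totals (9 higher, 15 lower). Cebpa, a factor of myeloid commitment, counted 131, 126, 117 and 141 CPM untreated and 10.8, 10.2, 9.05 and 11.6 CPM after LPS (-3.62 ± 0.13). Against it, Spi1 (PU.1) rose by 1.53 ± 0.08 and Tfec by 2.24 ± 0.09, in all 4 libraries outside the untreated range. Of 16 alternative activation genes 6 were higher and 8 lower (median -0.67), against 3 and 9 under library totals: the lectin genes Clec10a (-3.59 ± 0.45) and Mrc1 (CD206, -1.45 ± 0.08) fell, as did Stab1 (-1.01 ± 0.06), while the scavenger receptor genes Marco (5.07 ± 0.43) and Msr1 (2.45 ± 0.15) and the transglutaminase gene Tgm2 (2.51 ± 0.21) rose. Receptors and bridging proteins that clear dead cells were lower in 14 of 23 and higher in 7 (median -0.62), with the same counts under all 5 scalings. Havcr2 (TIM-3) changed by -3.96 ± 0.16, Stab2 by -3.03 ± 0.15, Itgb5 by -2.31 ± 0.08 and Gas6, a bridge to the receptors Axl and MerTK, by -1.99 ± 0.09. Lysosome genes drifted down, with 21 of 32 lower and 8 higher, but only 2 over 2-fold lower (median -0.37): Npc1 (-1.29 ± 0.07), Hexa (-0.59 ± 0.05) and Tpp1 (-0.53 ± 0.05) fell and the proton pump subunit Atp6v1h rose (0.92 ± 0.09).

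Stress programmes rose in part. Of 20 NRF2 targets 13 were higher and 3 lower (median 0.44, and -0.11 under library totals), with the smallest adjusted p for Gsr (1.84 ± 0.10) and Txnrd1 (1.81 ± 0.12), which recycle glutathione and thioredoxin, and for Keap1, the inhibitor of NRF2 (1.18 ± 0.07). The lower ones were Gpx1 (-1.28 ± 0.07), Osgin1 (-0.45 ± 0.09) and Taldo1 (-0.25 ± 0.06). Of 22 genes that answer unfolded proteins and the integrated stress signal, 14 were higher and 4 lower (median 0.46, and -0.10 under library totals). Ppp1r15a (GADD34, which restores translation) rose by 3.01 ± 0.10, the chaperone gene Hspa5 (BiP) by 1.28 ± 0.10 and Herpud1 by 1.08 ± 0.08. The lower ones were Ern1, the sensor IRE1 (-1.09 ± 0.07), Ddit4 (-0.85 ± 0.27), Pdia4 (-0.36 ± 0.09) and Sesn2 (-0.36 ± 0.15).

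Cell cycle genes had the lowest median of the 33 lists, -1.09, with 27 of 39 lower and 8 higher. E2f1, which drives entry into DNA synthesis, counted 33.2, 32.5, 29.8 and 30.8 CPM untreated and 8.34, 7.77, 6.95 and 8.70 CPM after LPS (-1.99 ± 0.07), and E2f2 changed by -3.73 ± 0.41. Cdk4 fell less (-0.74 ± 0.04). Against them, Cdkn1a (p21, which halts the cycle) rose by 2.88 ± 0.13, and Ccnd2 (cyclin D2) by 4.77 ± 0.24, the largest rise of the list. The proliferation marker Mki67 was also among the 8 higher ones (1.00 ± 0.45). Cytosolic ribosomal protein genes hardly moved under TMM, with 24 of 42 not called, 14 lower and 4 higher, no change over 2-fold and a median of -0.11; median-ratio factors gave 5 higher and 5 lower, and under library totals 40 were called lower and none higher (median -0.67). The 4 higher ones were Rpl24 (0.44 ± 0.07), Rps23 (0.42 ± 0.17), Rpl27 (0.24 ± 0.05) and Rpl19 (0.14 ± 0.06), and Rps15 (-0.23 ± 0.07) was among the lower. Genes that build ribosomes rose in 21 of 30 and fell in 5 (median 0.61), with Wdr43 (1.97 ± 0.08), Ddx21 (1.61 ± 0.10) and Noc4l (1.00 ± 0.09) higher. The lower ones were Wdr12 (-1.02 ± 0.12), the polymerase subunits Polr1c (-0.85 ± 0.08) and Polr1b (-0.70 ± 0.09), Npm1 (-0.46 ± 0.07) and Dkc1 (-0.46 ± 0.15). Under library totals that list had 9 higher and 11 lower.

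Genes on both sides of cell death rose: 22 of 29 genes of apoptosis and survival were higher and 4 lower, with a median of 1.21 (18 higher and 9 lower under library totals). The BCL2-family genes Bcl2a1a (5.41 ± 0.18), Bcl2a1b (4.62 ± 0.11) and Bcl2a1d (5.25 ± 0.17) rose most, though they are near-identical copies whose reads the counting may have shared out. Cflar (c-FLIP, which blocks caspase-8) rose by 2.80 ± 0.09, and so did the death receptor gene Fas, by 2.14 ± 0.11. The lower ones were the BH3-only gene Bbc3 (PUMA, -1.15 ± 0.16), Bcl2l11 (BIM, -0.86 ± 0.08), Ripk3 (-0.26 ± 0.11) and Bad (-0.22 ± 0.08). Of 15 TGF-β pathway genes 7 were higher and 6 lower under TMM, with a median of 0.11 that was -0.17 with upper-quartile factors and -0.45 with library totals (5 higher, 10 lower). The co-repressors moved apart, Ski by -2.02 ± 0.06 and Skil by 1.76 ± 0.08, and so did the receptor-activated factors Smad3 (-1.79 ± 0.10) and Smad2 (0.97 ± 0.06). Clock genes fell in 9 of 16 and rose in 3 (median -0.73). Dbp (-4.01 ± 0.29), Tef (-2.75 ± 0.14), Per3 (-2.53 ± 0.17) and Nr1d2 (-1.46 ± 0.09), all outputs or repressors of the clock, fell, and Cry1 (1.72 ± 0.10), Ciart (1.02 ± 0.27) and Clock (0.37 ± 0.05) rose. In metal handling 9 of 16 were higher and 5 lower under TMM (median 0.63), against 6 higher and 7 lower under library totals (median 0.07). The importers Slc39a14 (2.72 ± 0.16) and Slc11a2 (1.34 ± 0.07), the zinc transporter Slc30a4 (0.74 ± 0.06) and ferritin heavy chain (Fth1, 0.91 ± 0.10) rose. The exporter of iron, Slc40a1 (ferroportin), counted 225, 302, 354 and 298 CPM untreated and 33.0, 40.8, 35.9 and 54.8 CPM after LPS (-2.84 ± 0.23), and Steap3 (-1.64 ± 0.17), Mt1 (-1.01 ± 0.08), Tfrc (-0.73 ± 0.18) and Mcoln1 (-0.68 ± 0.07) fell.

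**Figure D4:**
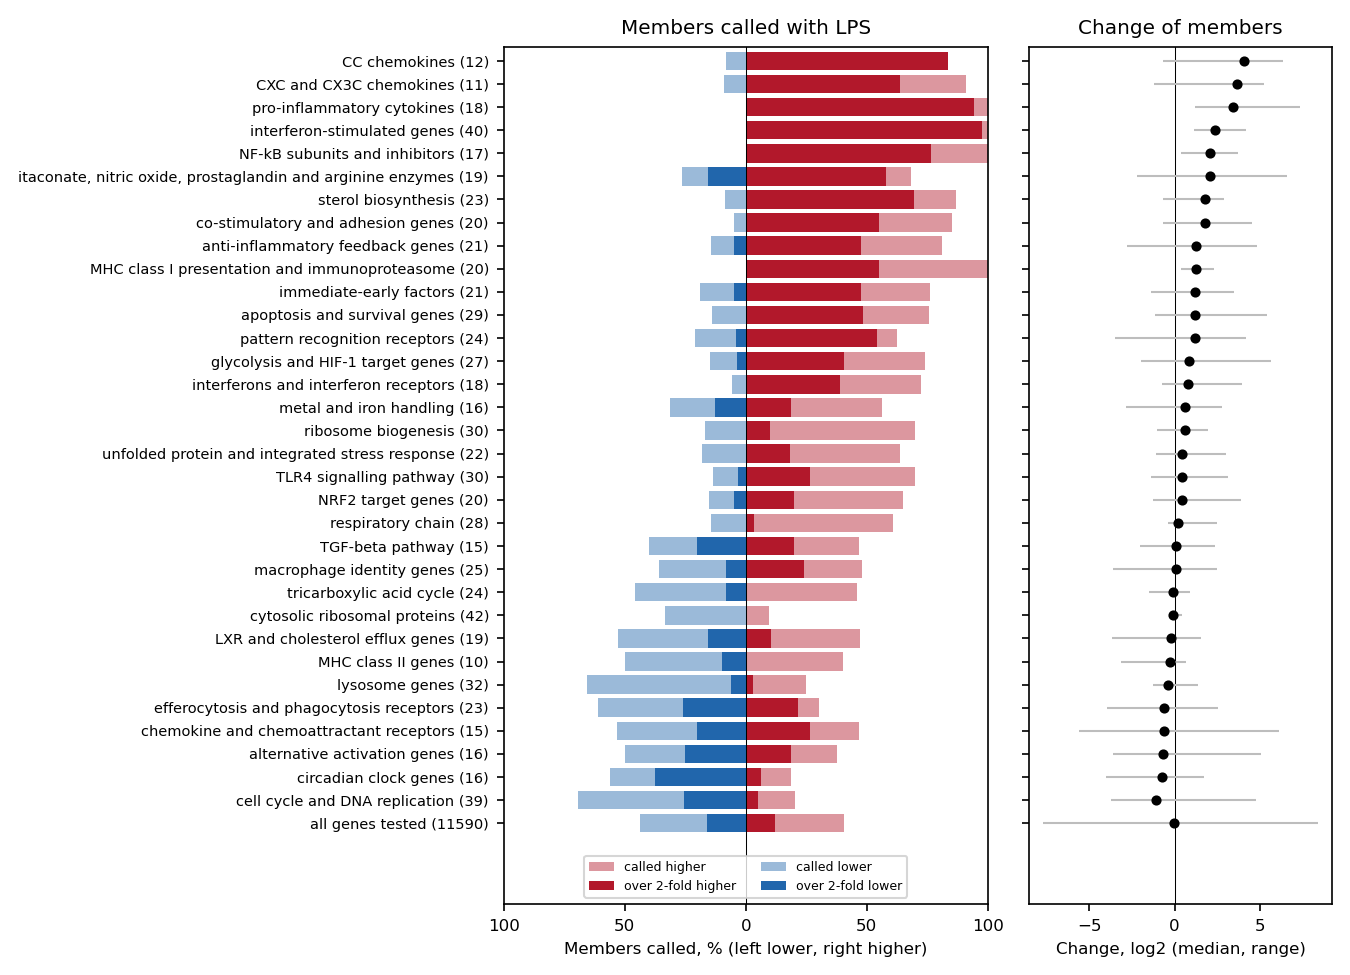
Members of 33 gene lists called with LPS in WT macrophages, in percent of measured members (number in brackets; red higher, blue lower, dark part over 2-fold), and their log2 changes (median as a point, range as a line), under TMM scaling. The bottom row gives all genes tested, with 40.6% higher and 43.6% lower; 6 lists have a median above 2, and cell cycle genes have the lowest.

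These lists were described by counts and medians only, and no test of a list against other genes was run. Under TMM 23 of the 33 lists had a median above 0. The sign of the median changed in 6 of the 33 under library totals, in 3 with upper-quartile factors, in 1 with ribosomal protein scaling and in none with median-ratio factors, each given above.

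The shift in counts was spread over many genes, and the 100 most counted genes of a library held 27.0 ± 0.448% of counts untreated and 28.2 ± 0.410% after LPS. Of the most counted genes, Actb (β-actin, often used as a reference gene) rose from 0.455 ± 0.0161% to 1.20 ± 0.0150% of all counts, a log2 change of 1.95 ± 0.09. Fth1 and Cybb (the catalytic subunit of the phagocyte oxidase) reached 1.19% and 0.541% after LPS, and Rsad2 0.566%. Lyz2 was the most counted gene in both groups, with 2.76% untreated and 2.19% after LPS, and it changed by 0.22 ± 0.07 under TMM and -0.34 under library totals. The lysosomal genes Ctsb (1.68% to 0.899%, a log2 change of -0.35 under TMM) and Psap (1.64% to 0.697%, -0.68 under TMM) fell. So did Ctsd (-0.73 ± 0.10), Mpeg1 (-0.24 ± 0.07), Apoe (-0.38 ± 0.13) and Gpnmb (-0.64 ± 0.18), while Lpl (lipoprotein lipase, 0.84 ± 0.10) and Adgre1 (1.21 ± 0.08) rose. With ribosomal protein scaling the falls of Ctsb (-0.26) and Mpeg1 (-0.15) were not called. Rn45s, the ribosomal RNA precursor left over from poly(A) selection, changed by 0.36 ± 0.15 (edgeR adjusted p = 0.026) with overlapping groups, and by -0.20 under library totals.

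Non-coding transcripts were led by Mir155hg (chromosome 16, 84713023 to 84715245), the host transcript of miR-155, a microRNA known to be induced in activated macrophages. It counted 0.589, 0.704, 0.371 and 0.676 CPM untreated and 77.8, 93.7, 92.5 and 74.5 CPM after LPS (7.15 ± 0.22). The mature sequences it carries are shown from RefSeq (GRCm38.p6), with the seed, bases 2 to 8, in capitals.
mmu-miR-155-5p, chr16:84714143-84714165, plus strand: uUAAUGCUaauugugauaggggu
mmu-miR-155-3p, chr16:84714182-84714202, plus strand: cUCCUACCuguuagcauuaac
The seeds of the arms differ. The libraries were made from poly(A) RNA and count the host transcript, and mature miR-155 was not measured. Counts of the hairpin gene Mir147 rose as well (4.91 ± 0.23), and mature miR-147 was likewise not measured. Of the lncRNA genes 30 were over 2-fold higher and 56 lower among the 249 in the table (2.12% of all genes over 2-fold higher, 3.04% of those over 2-fold lower and 2.15% of the table).

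Some genes over 2-fold changed lay side by side. In the order of the 11562 genes that could be placed on GRCm38.p6, runs of at least 4 neighbours that were all over 2-fold higher numbered 29 and held 145 genes, and runs of genes over 2-fold lower numbered 28 and held 124. The longest had 7 genes. Runs of higher genes included the Ifit genes (chromosome 19, 34550550 to 34662981, 6 genes), the Gbp genes on chromosome 3 (142496934 to 142638008, 5 genes) and chromosome 5 (105076464 to 105346476, 5 genes), and Myo1d with Ccl2, Ccl7, Ccl12 and Ccl8 (chromosome 11, 80482126 to 82116799). Another held Psmb9, Tap1, Psmb8 and Tap2 (chromosome 17, 34182030 to 34216321). Among lower genes the longest run was made of 7 zinc finger genes from Zfp235 to Zfp94 on chromosome 7 (24132372 to 24316698). These runs were picked from the list after it was seen, and members of such families share sequence, so part of their counts may be shared. How many runs a random order would give was not computed.

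The same treatment of KO cells, in libraries that share no sample with the WT comparison, was set beside it. The KO libraries held 0 to 5 counts of Gpr35 each. In them 9539 genes (82.3%) were called with LPS. All 3267 genes over 2-fold changed in WT had the same sign in KO, and 3266 were called in the same direction, Spns3 being the exception (-1.66 ± 0.36 in WT, -0.65 ± 0.40 in KO). Of the 212 named genes all 212 had the same sign and 210 were called the same way. They include Gpr35 itself, whose sign in KO rests on those few counts. Over all 11590 genes, 11084 had the same sign. Tnf changed by 5.65 ± 0.26 in KO against 5.66 ± 0.26 in WT, Acod1 by 6.47 ± 0.27 against 6.41 ± 0.26, Cxcr4 by -5.61 ± 0.32 against -5.62 ± 0.30 and Cebpa by -3.11 ± 0.13 against -3.62 ± 0.13. The difference of the LPS effect between genotypes was called for 0 genes (0% of 11590) in edgeR, with 698 at an unadjusted p below 0.05 and a smallest adjusted p of 0.23, while DESeq2 called 4. These were Peg13, an imprinted non-coding gene (-1.40 ± 0.07 in WT, -0.85 ± 0.07 in KO), Slc9a9 (-1.52 ± 0.06 and -1.13 ± 0.06), Inppl1, the phosphatase SHIP2 (0.06 ± 0.05 and -0.23 ± 0.05), and the adaptor gene Grb2 (0.15 ± 0.04 and -0.06 ± 0.04), with DESeq2 adjusted p of 0.008, 0.023, 0.018 and 0.0066. Some genes of low counts differed in their estimates without passing, such as Csf3 (5.58 ± 0.55 in KO against 7.32 ± 0.49) and Rasgrf1 (8.82 ± 0.62 against 7.03 ± 0.45). A miss of the threshold does not show that the genotypes respond alike. With 15.2 to 21.5 M counts the KO libraries had less depth than the WT ones, and they came from lane 1 only, so genotype, lane and depth cannot be told apart.

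**Figure D5:**
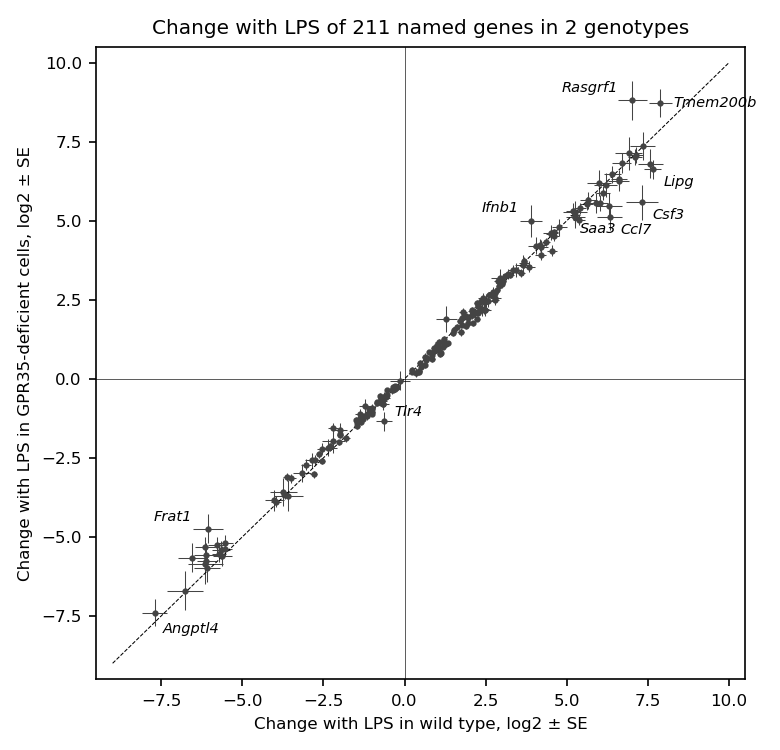
Log2 change with LPS, ± SE, of 211 named genes (Gpr35 left out) in WT (horizontal) and KO (vertical) cells; the dashed line marks equal changes. Points lie along the line, and those farthest from it, such as Csf3 and Rasgrf1, have wide errors.

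Markers of other cell types were measured in part. Of 86 markers listed for 7 other cell types, 35 were measured. Most of these were of neutrophils (14 of 16 listed), osteoclasts (8 of 10) and stroma or endothelium (7 of 12). Markers absent from the table may have been removed upstream as low. The 14 neutrophil and granulocyte markers summed to 464 to 705 CPM untreated and 644 to 851 CPM after LPS, with 4 higher, 7 lower and 3 not called. Of these, Csf3r rose by 1.11 ± 0.09 and S100a9 was not called (-0.14 ± 0.30, edgeR adjusted p = 0.68). The dendritic cell marker measured was Kmo (-0.63 ± 0.25), at 2.07 to 3.74 CPM untreated and 1.69 to 2.26 CPM after LPS. That of mast cells was Hdc, given above, at 1.40 to 2.49 and 44.0 to 49.5 CPM. The 2 of lymphocytes, Cd4 (-1.37 ± 0.16) and Cd79b (-2.34 ± 0.26), summed to 81.7 to 98.4 and 30.2 to 39.1 CPM. The 2 of megakaryocytes, the platelet chemokines Pf4 (1.06 ± 0.11) and Ppbp (1.29 ± 0.32), which also count among the CXC genes above, summed to 74.7 to 93.7 and 158.9 to 186 CPM. The 7 stromal and endothelial markers summed to 21.9 to 28.4 CPM untreated and 170.6 to 210.1 CPM after LPS, almost all of it Kdr (a VEGF receptor, 3.69 ± 0.16). Of the 7, 3 were called higher, 1 lower (-2.68) and 3 not called, and 4 had the same sign in KO. Pdgfrb changed by 2.93 ± 0.25, and the collagen genes Col1a1 and Col1a2 were not called (0.50 ± 0.62 and 0.45 ± 0.58). The 8 osteoclast markers summed to 351 to 467 CPM and 320.5 to 392 CPM, with 3 higher, 4 lower and 1 not called. Among them Atp6v0d2 changed by -2.20 ± 0.35 and Tnfrsf11a (RANK) by 0.52 ± 0.09 (-0.03 under library totals). Their part in the results above was not tested.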

How the data were processed

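Poly(A) RNA of mouse bone marrow-derived macrophages was sequenced as stranded paired 51-base libraries, per the labels' protocols. The authors deposited a table of counts per gene over 24 libraries with gene lengths. STAR 2.5.2a and mm10 are named by the submitters' processing notes. The counting tool, its strand setting, its treatment of shared reads and its gene models are not given in the sources used, so near-identical, overlapping and antisense genes are uncertain. Genes of low counts had been removed before deposit, and the filter of edgeR removed no further gene.

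Counts were fitted with edgeR 4.0.16 (R 4.3.3): TMM factors, 1 mean per group over 6 groups and 24 libraries, quasi-likelihood F tests with robust dispersions, Benjamini-Hochberg adjustment over 11590 genes and a threshold of 0.05, and glmTreat against a log2 change of 1. Per-kilobase levels are CPM divided by the deposited length. Alternatives were 4 other scalings, a minimum of 50 counts, other sets of libraries, thinned counts, DESeq2 1.42.0, voom (limma 3.58.1), a replicate block and leaving out each replicate. The procedure was run on simulated data in which a small set of genes changed, evenly up and down, and all others did not. That setting lacks the shift in counts seen here, so it does not test the scaling. Equal replicate numbers were not taken to pair libraries.

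The genes named were the 15 largest rises and falls among called genes of at least 5 CPM whose groups did not overlap, the 4 smallest adjusted p of each list with its largest fall where both directions occurred, the 2 highest markers of each cell type, the 10 most counted genes and a fixed set around TLR4. Promoters were the 6 smallest adjusted p among NF-kB, cytokine, chemokine and interferon-stimulated genes whose window held a motif. The lists and rules were chosen with earlier results of these data known. Depth was 35.3 to 46.7 M counts per WT library, and pairs within a group differed by more than counting error (chi-square per degree of freedom 10.7 to 31.4 in the 12 pairs), so all libraries were kept as separate replicates. Coordinates are those of RefSeq GRCm38.p6, the assembly of mm10. Figures were drawn with matplotlib 3.10.9. A few genes that the naming rule picks are not reported here.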

Additional observations from a re-analysis of the deposited data

Results flagged for a closer look

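For 39 named genes, and for the total count, the TMM factor and the shares of counts in genes over 2-fold higher, in genes over 2-fold lower and in Rn45s, the untreated and the LPS libraries were each checked for a library far from the other 3. Of these 88 groups of 4 values, 2 had a gap above Dixon's limit. Chance alone gives about 1 group in 20. Slco2b1 stood at 1.41 CPM in LPS library 4, against 0.777 to 0.841 CPM in the other LPS libraries. Sox4 stood at 3.76 CPM in untreated library 3, against 5.84 to 6.26 CPM in the other untreated libraries. Both values lie far from the other treatment group, and both falls kept their call when the library was left out.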

How the results depend on the processing

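The direction of small rises rested on the scaling. Of the 212 named genes, 203 kept their direction and call in each of 20 alternatives but library totals, and 196 in all 20. S100a9 is counted among the 203 because it was called neither in the main fit nor in these alternatives. Its sign did turn, with values up to 0.041. Most of the 212 had been picked for a small adjusted p, which favours such stability, and a minimum of 50 counts left 210 of them. The setting without a filter, though counted among the 20, is the main fit again. The filter of edgeR had kept all 11590 genes, so this setting could not differ. Over all 11590 genes, 1123 were called higher under TMM and lower under library totals. With library totals 2387 genes were called higher and 7847 lower, 806 and 3372 of them over 2-fold, the share of called genes that were higher was 23.3% in place of 48.3% and the median log2 change was -0.59 in place of -0.04. That share and median were 34.4% and -0.31 with upper-quartile factors, 49.8% and -0.0052 with median-ratio factors, 52.4% and 0.056 with ribosomal protein scaling, 47.6% and -0.046 in a fit of the 2 groups alone, 47.5% and -0.066 after thinning to the smallest library and 49.9% and -0.0052 in DESeq2. The share alone moved to 48.1% with a minimum of 50 counts, 48.1% in a fit of the 12 WT libraries and 48.4% in voom. Under library totals the signs of Cd74 (-0.089), Ly96 (-0.11), Lyz2 (-0.34), Rn45s (-0.20), Rpl24 (-0.12), Rpl27 (-0.31) and Tnfrsf11a (-0.034) were reversed, and with upper-quartile factors those of Lyz2 (-0.059) and Rpl27 (-0.036). The cause of the changes beyond the scaling itself was not tested.

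Leaving out each replicate gave 9487 to 9639 called genes (4575 to 4662 higher, 4912 to 4981 lower), 3112 to 3244 over 2-fold (1368 to 1421 higher, 1737 to 1840 lower), a share of 48.0% to 48.4%, a median of -0.041 to -0.036, 9495 to 9540 called in KO and 0 to 1 in the difference between genotypes, the 1 being Slc8b1 (KO minus WT -0.44) without LPS library 1. DESeq2 called 4 genes in that difference. Libraries of equal replicate number deviated together weakly, each with a positive correlation (0.09, 0.14, 0.26 and 0.16). Untreated libraries 2, 3 and 4 correlated best with the LPS library of their own number, and untreated library 1 with LPS library 4 (0.19). Libraries of unequal number correlated from -0.23 to 0.19. The labels do not say what a replicate number stands for, and the main fit did not take the numbers as pairs. A fit with the replicate number as a block called 10012 genes (4823 higher, 5189 lower) and 3416 over 2-fold. All 211 named genes called in the main fit kept their direction and call in it. Low counts limit the size of the largest changes, such as that of Tmem200b, and values near 0.5 CPM had been cut away upstream, so genes silent in both states are not analysed here.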
